A study of Homo sapiens with 16 samples.

Results

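Replication-dependent histone genes supply the core histones H2A, H2B, H3 and H4 and the linker histone H1 when DNA is copied. The members were taken from GENCODE release 44 by symbol, as the protein-coding genes named H1-1 to H1-6 or carrying the cluster names H2AC, H2BC, H3C and H4C with a number. That rule gave 69 genes, of which 55 lie on chromosome 6, 13 on chromosome 1 and 1 on chromosome 12. The count tables list 65 of them, and H2AC18, H2AC19, H3C2 and H3C3 were not analysed here. The rule itself uses symbols and no measured value.

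These genes are the known exception to polyadenylation in animal cells. Their pre-mRNAs lack introns, and the stem-loop binding protein SLBP and the U7 snRNP direct cleavage just downstream of a conserved stem-loop, so the mature mRNA ends there without a poly(A) tail. Transcription is tied to S phase through NPAT in the histone locus body, and the mRNAs are degraded when DNA synthesis stops. Some members can also be made as longer, polyadenylated transcripts that read past the stem-loop, and oligo(dT) anneals to any run of A, whether it is a tail or is encoded in the gene.

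The study asked which cytoplasmic mRNAs change when cap methylation in the cytoplasm is blocked. The cells were U2OS-TR, a human osteosarcoma line (U2OS) that stably expresses the tetracycline repressor, and 1 clone that carries ΔN-RNMT, an inactive, cytoplasmic form of the cap methyltransferase RNMT under tetracycline operator control. Cytoplasmic RNA was made into QuantSeq REV libraries, in which oligo(dT) primes the cDNA and a tag at the 3′ end is counted. There were 5 uninduced and 5 induced libraries of the transgene clone, and the parental line gave 3 libraries without and 3 with doxycycline. All cells were split 48 h before the point of treatment and collected 24 h after it. The induced and the treated parental cells received 1 μg/ml doxycycline for those 24 h. The protocol stored with the libraries lists doxycycline for every one of them, so the group names were taken from the library titles.

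The sequences below show what the members share and where H4C3, the member with the most counts, stands apart. They were read from hg38 at the end of the GENCODE 44 coding region, 5′ to 3′ on the transcribed strand, with 5 nt on either side of the stem-loop. Capitals mark the 6 paired bases on each side of the stem, and in the last line they mark the A residues.
H4C3 stem-loop, chr6:26104312-26104337, plus strand: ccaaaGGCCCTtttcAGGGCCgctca
H4C11 stem-loop, chr6:27824454-27824479, plus strand: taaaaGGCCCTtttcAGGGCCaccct
H1-2 stem-loop, chr6:26055739-26055764, minus strand: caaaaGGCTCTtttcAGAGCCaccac
H2AC6 stem-loop, chr6:26124664-26124689, plus strand: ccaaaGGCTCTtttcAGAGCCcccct
H2BC4 stem-loop, chr6:26123467-26123492, minus strand: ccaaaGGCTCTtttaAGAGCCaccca
H2BC21 stem-loop, chr1:149886183-149886208, minus strand: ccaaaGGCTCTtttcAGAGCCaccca
H1-5 stem-loop, chr6:27866792-27866817, minus strand: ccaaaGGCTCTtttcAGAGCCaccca
H4C3 upstream of the stem-loop, chr6:26104291-26104310, plus strand: AAAAAAcAAAAAcAAAAAAA

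A match to the histone stem-loop was found within 150 nt after the stop codon in 69 of 69 members and in 4 of 19855 other protein-coding genes (0.0201%). It began between 22 and 67 nt after the stop codon. Among the 10 stem-loop sequences found, 1 form was shared by 40 members of the H1, H2A, H2B and H3 classes and the commonest H4 form by 10 members. The poly(A) signal AATAAA occurred in the 1000 nt after the stop codon in 32 of 69 members (46.4%), against 62.1% of the other protein-coding genes. Both searches used the transcribed strand, and a match is a match of letters only.

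GENCODE annotates an isoform that runs more than 50 nt past the stem-loop for 17 members and ends all isoforms at the stem-loop for the other 52. H2BC21 has an unspliced transcript that reaches 1729 nt past the stem-loop, while the longer isoforms of H2AC6 and H2BC4 end 14432 and 37155 nt downstream of it in the genome. H4C3 has no such isoform. Its distinguishing feature is the A-rich stretch printed above, with 18 A residues in 20 nt, which starts 31 nt after the stop codon and ends 6 nt before the stem-loop. The other 68 members have at most 13 A residues in any 20 nt of their canonical transcripts. Windows with 18 or more A residues in the 150 nt after the stop codon were found in 77 of the 19855 other genes (0.388%).

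Depth and library quality frame what can be seen. The replicates are biological according to the methods. Gene counts were between 12527183 and 23251834 per transgene-line library and between 1473286 and 3214808 per parental library. The parental libraries were sequenced on another instrument and with longer reads. Tags that aligned to several places were left out, and their number divided by that of the gene counts ranged from 0.561 to 1.33 in the clone and from 0.773 to 1.44 in parental libraries, and which genes they came from was not tested. The last 75 nt of 8 members are identical to part of another gene, and none of these 8 was among the members tested. RNMT had between 55.6 and 112 CPM (counts per 1000000 counts on genes, scaled by TMM within each line) in uninduced and between 266 and 458 in induced libraries, which is 2.22 on the log2 scale (standard error, SE, 0.23, adjusted P = 0.00805, edgeR with Benjamini-Hochberg adjustment). Uninduced replicate 5 lay near the induced libraries and induced replicate 2 near the uninduced libraries for many genes. RNMT matched the label in both, although uninduced replicate 5 held the highest uninduced value (112 CPM). The main results that rest on these libraries are also given without them. Both were picked after seeing the data, for lying near the other group. Larger differences without them are therefore built in and are not a test. The 6 mesenchymal markers of the osteosarcoma line summed to between 1166 and 5006 CPM in the 16 libraries, whereas 6 epithelial or blood markers summed to between 3.66 and 16.9 CPM, of which CD3E was at 0 throughout.

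Histone mRNAs that were made into tags came from few genes. Of the 65 members listed, 25 had no count in any of the 16 libraries and 40 had at least 1. In the 10 libraries of the transgene line the members held 97960 counts together. A 3′ tag method counts 1 tag per primed cDNA, so these counts were not divided by gene length. H4C3, which encodes histone H4, took 35.9% of them, and H1-2, a linker histone of most somatic cells, took 20.8%. The H2B genes H2BC11 and H2BC21 took 12.2% and 12.1%, and the H2A gene H2AC6 took 6.13%. The next members, H1-1 and H2BC5, each held less than 3% of the counts.

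**Figure D1:**
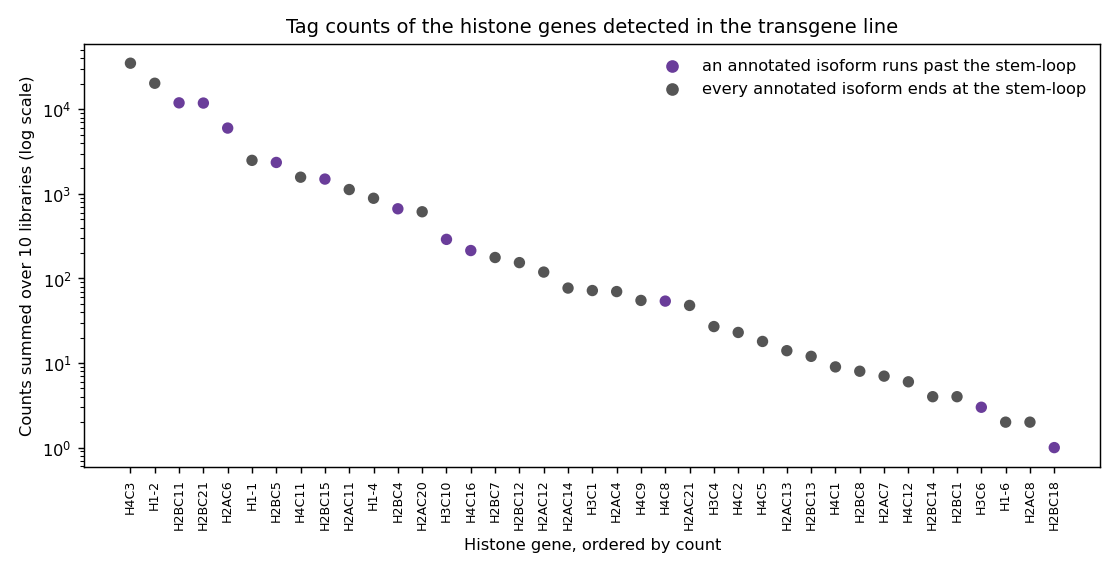
Tag counts summed over the 10 transgene-line libraries for each histone gene with at least 1 count, on a log axis and ordered from highest to lowest. Purple points are genes with an annotated isoform past the stem-loop and grey points are genes without one. H4C3 leads with 35122 counts, and purple points take ranks 3 to 5.

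By class, the H4 genes held 37.8% of the member counts, H2B 29.3%, H1 24.2%, H2A 8.25% and H3 0.4%. Only 4 of the 11 listed H3 genes had a count in any library. Genes with an annotated isoform past the stem-loop were 17 of the 65 and held 35.6% of the counts, and 8 of these 17 passed the filter for testing (a base mean above 20). Of the 48 listed genes that end at the stem-loop, 7 passed it. This split was not tested.

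Members without counts lay beside each other in places. On chromosome 6, 7 neighbouring listed members from H2AC16 to H2BC17 (27865317 to 27893891) and 6 from H4C6 to H2BC10 (26240393 to 26273412) were at 0 in all 16 libraries. On chromosome 1, 5 members from H3C13 to H4C15 (149813225 to 149861159) were at 0, and 4 of these share their last 75 nt with another gene of the run. A count of 0 allows up to 3 counts, an unscaled CPM of 0.129 to 0.239 in libraries of the clone and of 0.933 to 2.04 in parental libraries. Between these genes and the tested ones were 24 members with between 1 and 177 counts over the 10 libraries. H1-5, a somatic linker histone, is in the run from H2AC16 to H2BC17, and its stem-loop and flanks printed above have the same letters as those of H2BC21. Members with few counts include H1-6 and H2BC1, the testis forms of H1 and H2B, with 2 and 4 counts. In bulk RNA, fewer cells in S phase and less histone mRNA per cell cannot be told apart.

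Induction of ΔN-RNMT was compared with the uninduced state for the 15 members that passed the filter, in a fit over 13038 genes. In that fit 39.8% of all genes were called at an adjusted P below 0.05, with 19.8% lower and 20.0% higher (2579 and 2604 genes, or 1401 and 4022 with total counts alone as the scale). Among the members, 1 of 15 was called, the H4 gene H4C11, which was lower. At an unadjusted P below 0.05 there were 3 members, against 53.3% of all genes. The fitted log2 fold change was above 0 for 8 members and below 0 for 7, with a median of 0.07, and the median of all genes tested was 0.04. The uninduced and induced libraries overlapped for 15 of 15 members, while 7.30% of all genes had groups that did not overlap.

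**Figure D2:**
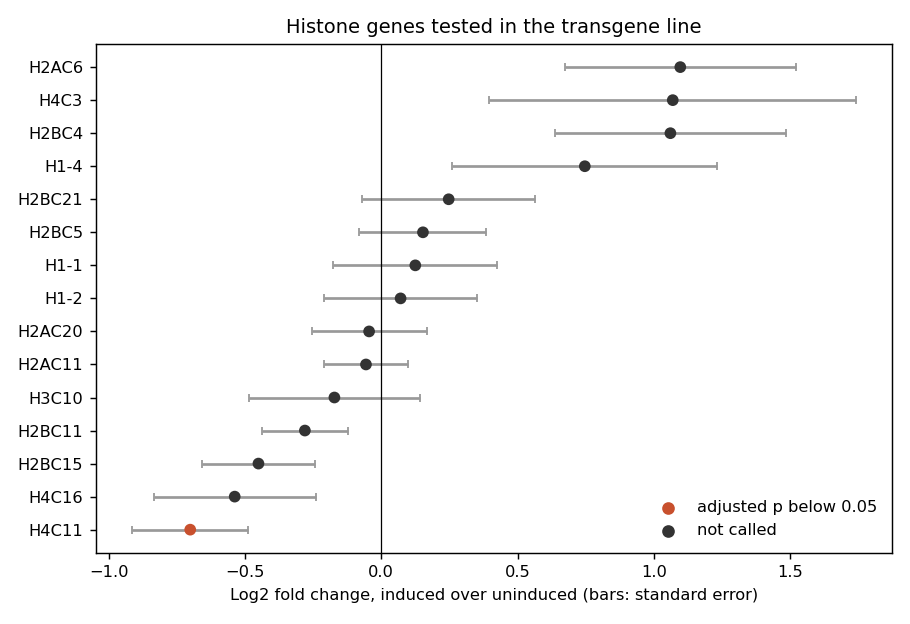
Log2 fold change of the 15 histone genes tested in the transgene line, induced over uninduced, with bars of 1 standard error and the called gene in its own colour. Values run from -0.70 for H4C11 to 1.10 for H2AC6, and H4C3 has the widest bar.

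The linker histones bind the DNA that enters and leaves the nucleosome. H1-2 (ENSG00000187837) was at 95.9, 118, 117, 90.3 and 93.1 CPM in uninduced replicates 1 to 5 and at 62.0, 144, 67.5, 179 and 87.8 CPM in induced replicates 1 to 5. Induced replicates 1, 3 and 5 lay below the whole uninduced range and replicates 2 and 4 above it. The means were 103 ± 13.6 and 108 ± 51.2 (SD, n = 5 each), and the log2 change was 0.07 (SE 0.28, adjusted P = 0.847, edgeR with Benjamini-Hochberg adjustment).

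H1-1 and H1-4 are other H1 subtypes. H1-1 was at 11.5, 10.8, 13.3, 13.5 and 12.4 CPM in uninduced libraries and at 6.26, 15.5, 8.63, 24.0 and 12.4 CPM in induced libraries. H1-4 was at 3.61, 2.92, 4.45, 2.90 and 3.17 CPM and then at 1.27, 5.83, 1.90, 11.7 and 7.66 CPM. Both were lowest in induced replicates 1 and 3 and highest in induced replicate 4, and the uninduced libraries lay between those extremes. Their log2 fold changes were 0.12 (adjusted P = 0.746) and 0.75 (adjusted P = 0.221), both from edgeR with Benjamini-Hochberg adjustment, and neither was called.

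**Figure D3:**
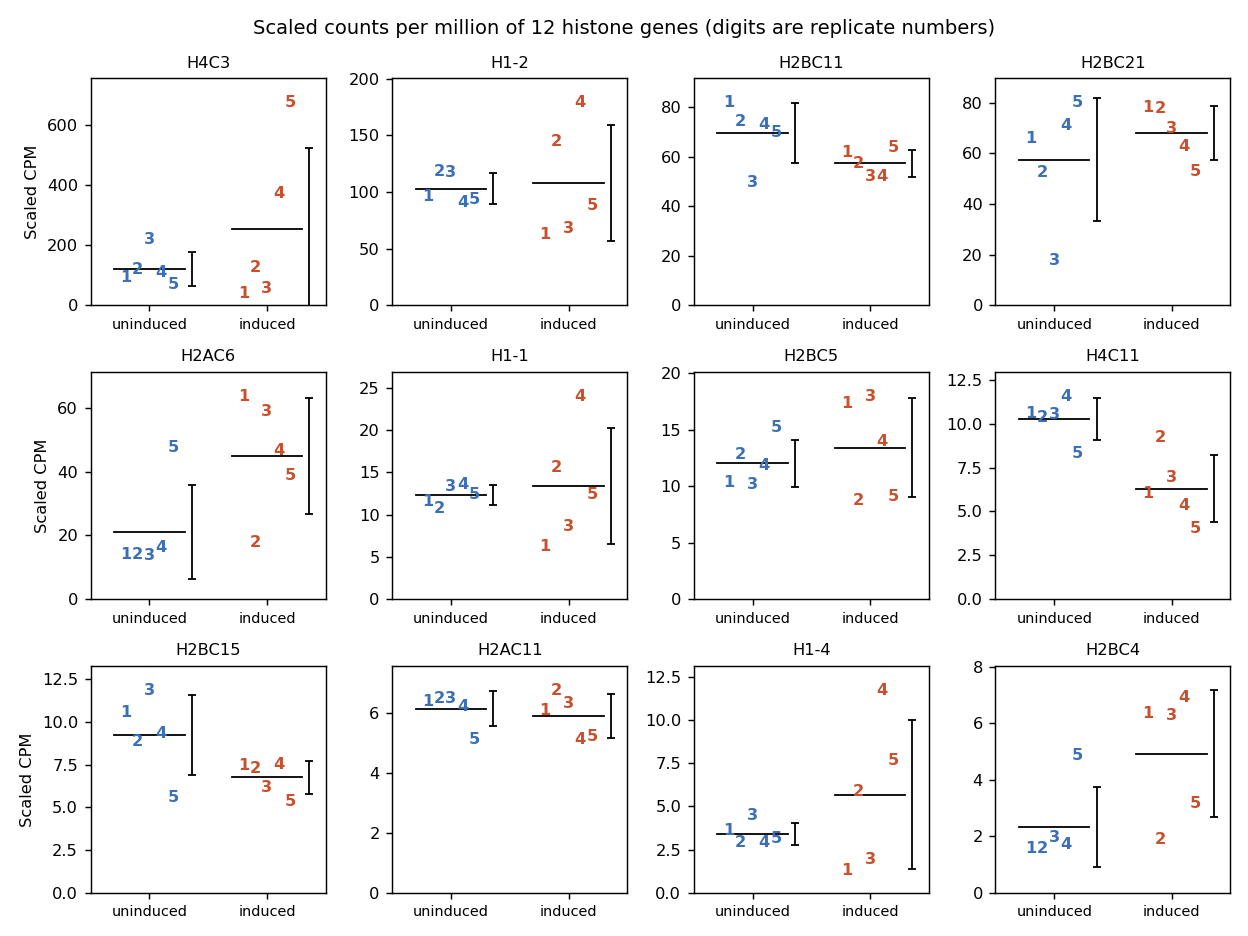
Scaled CPM of the 12 histone genes with the highest mean in the transgene line, with a linear axis from 0 in each panel. Digits are replicate numbers, the horizontal line is the group mean and the bar beside it is 1 SD (cut at 0 for H4C3). In the H1 panels and for H4C3 the induced libraries spread far wider than the uninduced ones, while for H2AC6 and H2BC4 uninduced replicate 5 and induced replicate 2 leave their groups.

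H2A genes contribute to the H2A-H2B dimer of the nucleosome. H2AC6 (ENSG00000180573) was at 14.0, 13.9, 13.6, 16.1 and 47.6 CPM in uninduced libraries and at 63.6, 17.6, 58.8, 46.6 and 38.7 CPM in induced libraries. Uninduced replicate 5 lay within the range of the induced libraries and induced replicate 2 was next to the other uninduced libraries. The means of 21.03 ± 14.9 and 45.1 ± 18.2 (SD, n = 5 each) gave a log2 change of 1.10 (SE 0.42, adjusted P = 0.0564, edgeR with Benjamini-Hochberg adjustment), just outside the threshold. DESeq2, which the study used, called H2AC6 higher (1.07, adjusted P = 0.0272) in a fit that called 45.9% of all genes. In edgeR with total counts alone it was also called (1.30, adjusted P = 0.0411). With both of those libraries left out, the log2 change was 1.84 (adjusted P = 5.26e-06 by the same test), in a fit that called 64% of all genes. With 1 surrogate variable it was 0.35 (adjusted P = 0.481, same test), in a fit that called 1 of 13038 genes. The other tested H2A genes, H2AC11 and H2AC20, had log2 fold changes of -0.06 and -0.04. H2AC11 was at 6.40, 6.49, 6.50, 6.24 and 5.12 CPM in uninduced libraries and at 6.12, 6.77, 6.34, 5.12 and 5.22 CPM in induced libraries.

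H2B genes were the class with the most tested members. H2BC4 (ENSG00000180596) was at 1.57, 1.58, 1.95, 1.69 and 4.86 CPM in uninduced libraries and at 6.34, 1.88, 6.28, 6.91 and 3.15 CPM in induced libraries. As for H2AC6, uninduced replicate 5 was apart from its group and induced replicate 2 was at the level of the other uninduced libraries. The log2 change was 1.06 (SE 0.42, adjusted P = 0.0626, edgeR with Benjamini-Hochberg adjustment). DESeq2 called H2BC4 higher (1.03, adjusted P = 0.0367), as did edgeR with total counts alone (1.28, adjusted P = 0.0417). Those fits called 45.9% and 41.6% of all genes. In edgeR the log2 change was 1.73 (adjusted P = 0.000113) without those libraries. With 1 surrogate variable it was 0.44 (adjusted P = 0.489, edgeR), in the fit that called 1 of 13038 genes. H2AC6 and H2BC4 are neighbours on chromosome 6, transcribed away from each other, and their stem-loops lie at 26124664 and 26123492. An annotated antisense gene overlaps exons of H2BC4, and the use of strand in the counting is not given in the sources used here.

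H2BC11 was at 81.7, 74.3, 49.4, 72.8 and 69.5 CPM in uninduced and at 61.8, 57.2, 52.0, 51.8 and 63.6 CPM in induced libraries. It was lower in every induced library than in 4 of the 5 uninduced ones, and the log2 change was -0.28 (SE 0.16, adjusted P = 0.159, edgeR with Benjamini-Hochberg adjustment). With 1 library left out at a time it ran from -0.39 to -0.22 and was called in 1 of 10 such fits, the one without uninduced replicate 3, which is the library that overlapped. H2BC15 was at 10.6, 8.83, 11.8, 9.34 and 5.55 CPM in uninduced and at 7.46, 7.24, 6.15, 7.51 and 5.34 CPM in induced libraries. Here uninduced replicate 5 was the overlapping library, and the log2 change was -0.45 (SE 0.21, adjusted P = 0.0961, edgeR with Benjamini-Hochberg adjustment). With 1 library left out at a time it ran from -0.60 to -0.36 and was called in 1 of 10 such fits, the one without that library. With 1 surrogate variable, in the fit that called 1 of 13038 genes, it was -0.066 (adjusted P = 0.848, same test).

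H2BC21 and H2BC5 did not separate the groups. H2BC21 was at 65.8, 52.6, 17.7, 71.0 and 79.9 CPM in uninduced and at 78.0, 77.7, 69.6, 62.6 and 52.9 CPM in induced libraries, with uninduced replicate 3 far below the rest. H2BC5 was at 10.3, 12.8, 10.1, 11.8 and 15.2 CPM and then at 17.4, 8.70, 17.95, 14.0 and 9.08 CPM. Their log2 fold changes were 0.25 and 0.15, smaller than their standard errors of 0.32 and 0.23.

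H3 genes had few counts. H3C10, the only H3 member tested, was between 1.17 and 2.39 CPM in uninduced libraries and between 0.82 and 2.22 CPM in induced libraries, a log2 change of -0.17 (SE 0.31, adjusted P = 0.667, edgeR with Benjamini-Hochberg adjustment).

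Among the H4 genes, H4C11 (ENSG00000197238) was the member that was called. It was at 10.6, 10.3, 10.6, 11.6 and 8.29 CPM in uninduced libraries and at 6.04, 9.22, 6.92, 5.35 and 4.04 CPM in induced libraries. The overlap came from uninduced replicate 5 and induced replicate 2. The means fell from 10.3 ± 1.21 to 6.31 ± 1.94 (SD, n = 5 each), a log2 change of -0.70 (SE 0.21, adjusted P = 0.0266, edgeR with Benjamini-Hochberg adjustment). Without both libraries, left out after seeing the data, it was -0.96. DESeq2 also called H4C11 lower (-0.74, adjusted P = 0.00824), in a fit that called 45.9% of all genes. In edgeR the call was kept with DESeq2 size factors, other filter settings or a replicate block. It was lost when total counts alone set the scale (-0.47) and with offsets for GC content (-0.25, adjusted P = 0.315). With 1 surrogate variable (-0.52, adjusted P = 0.179) it was also lost, in the fit that called 1 of 13038 genes. Leaving out any of uninduced replicates 1, 2 and 4 or induced replicates 1, 3 and 4 lost it too (adjusted P up to 0.0671). These losses were all in edgeR with Benjamini-Hochberg adjustment. H4C16, which lies alone on chromosome 12, had between 0.461 and 1.69 CPM and a log2 change of -0.54 (SE 0.30, adjusted P = 0.155, edgeR with Benjamini-Hochberg adjustment).

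H4C3 (ENSG00000197061), also a gene for histone H4, was at 90.7, 118, 218, 107 and 70.3 CPM in uninduced libraries and at 40.6, 126, 56.4, 372 and 675 CPM in induced libraries. The induced libraries included both the lowest and the highest values of the clone. The log2 change was 1.07 with a standard error of 0.67 (adjusted P = 0.206, edgeR with Benjamini-Hochberg adjustment), and it was 0.30 (adjusted P = 0.697, same test) without induced replicate 5.

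H4C3 was set beside the tags that aligned to several places. Among induced libraries these tags numbered 0.615, 0.822, 0.561, 0.921 and 1.33 per gene count in replicates 1 to 5, so replicates 1 and 3 had the lowest ratios and the lowest H4C3 levels and replicate 5 the highest of both. In uninduced replicates 1 to 5 the ratios were 0.885, 0.860, 1.01, 0.722 and 0.727. There replicate 3 was highest in both, but replicate 4, with the lowest ratio, held more H4C3 (107 CPM) than replicate 1 (90.7 CPM). In the parental line the ratio was 1.44, 1.05 and 0.808 in untreated and 0.820, 0.773 and 1.37 in treated replicates 1 to 3, where H4C3 was at 357, 82.9 and 11.4 CPM and at 6.43, 3.99 and 167 CPM. The 3 parental libraries with a ratio above 1 had the highest H4C3 levels in that line, and they come from both groups. The same libraries were also the highest for H1-2, H1-1, H1-4 and H4C11, though not for H2AC6, so this order was not particular to H4C3. The part of these tags in the H4C3 values was not tested, and tag positions were not used here, so which A residues were primed was not tested either.

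**Figure D4:**
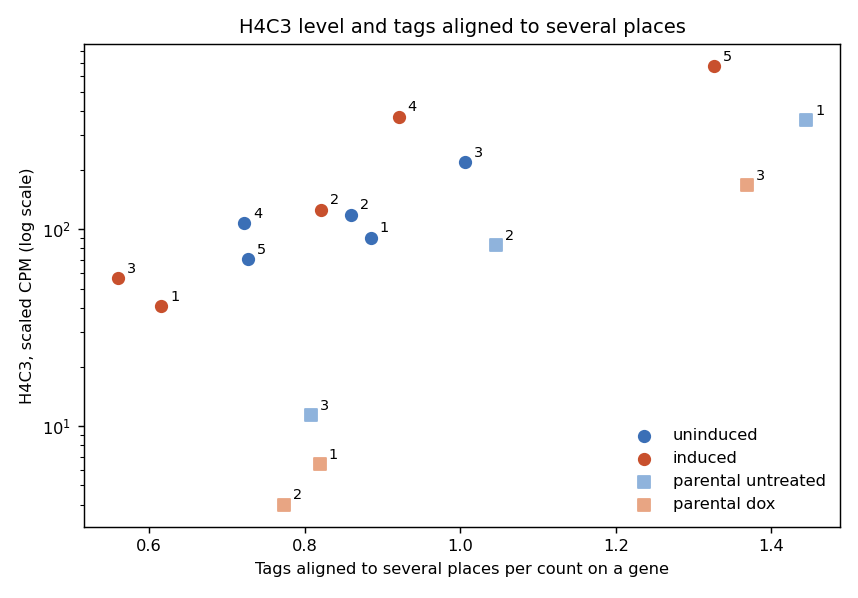
H4C3 level (scaled CPM, log axis; each line was scaled on its own) against the tags that aligned to several places per count on a gene, for 16 libraries labelled by replicate number. Circles are the transgene line and squares the parental line; induced replicate 5, at 675 CPM, has the highest ratio of its line (1.33).

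The share of each library that fell on histone members is given as unscaled CPM, the counts divided by all gene counts of that library. All members took 379, 397, 412, 404 and 421 in uninduced libraries and 388, 499, 392, 896 and 1118 in induced libraries. With H4C3 taken out, the values were 296, 291, 227, 303 and 351 and then 345, 371, 332, 479 and 349. Induced libraries 4 and 5 stood far above the others before H4C3 was removed, and induced library 4 was still the highest afterwards. The groups overlapped in both cases, and no test was made on these sums.

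The same share was split by annotation. The 17 with such an isoform summed to 173, 150, 90.8, 177 and 223 unscaled CPM in uninduced and to 253, 177, 228, 214 and 201 in induced libraries. The 47 listed members that end at the stem-loop, H4C3 left out, summed to 124, 141, 137, 126 and 128 in uninduced libraries and to 91.5, 193, 104, 265 and 148 in induced libraries. In the second set, induced replicates 1 and 3 were below every uninduced library and replicates 2, 4 and 5 above. The difference between the sets was not tested.

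SLBP (ENSG00000163950), which binds the stem-loop and is needed to process, export and translate these mRNAs, rose on induction. It was at 5.38, 5.91, 4.33, 7.99 and 20.3 CPM in uninduced libraries and at 30.4, 10.7, 29.5, 27.0 and 24.0 CPM in induced libraries. As with H2AC6 and H2BC4, uninduced replicate 5 approached the induced libraries and induced replicate 2 the uninduced ones. The log2 change was 1.46 (SE 0.43, adjusted P = 0.0238, edgeR with Benjamini-Hochberg adjustment). This call was lost when any of uninduced replicates 1 and 2 or induced replicates 1, 3 and 4 was left out (adjusted P up to 0.0587, same test). It was also lost with 1 surrogate variable (0.66), in the fit that called 1 of 13038 genes. Without uninduced replicate 5 and induced replicate 2, left out after seeing the data, the log2 change was 2.22. NPAT, the coactivator of histone gene transcription, was between 18.8 and 31.8 CPM in uninduced and between 22.8 and 26.2 CPM in induced libraries, a log2 change of -0.12 (adjusted P = 0.518, same test).

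**Figure D5:**
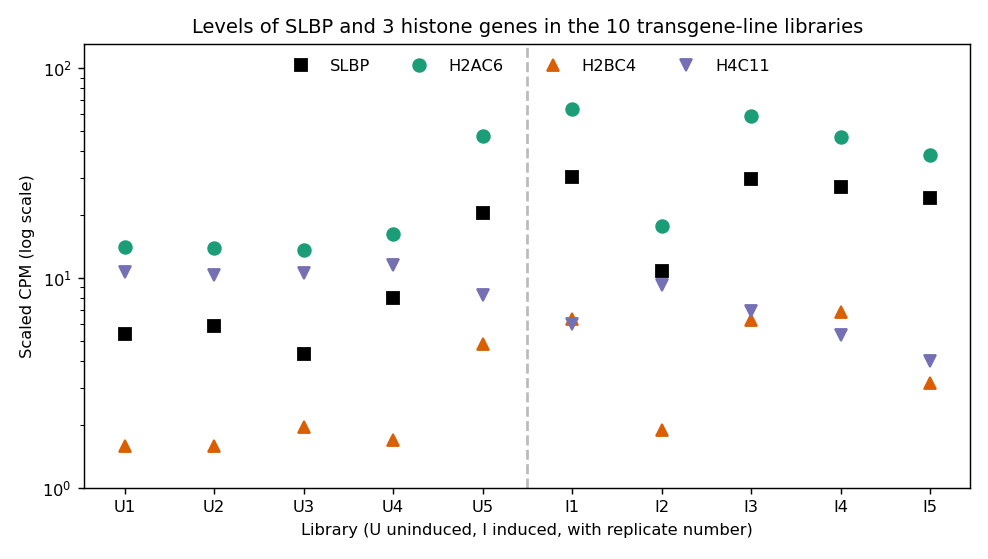
Scaled CPM (log axis) of SLBP and the histone genes H2AC6, H2BC4 and H4C11 in each uninduced (U) and induced (I) library. SLBP, H2AC6 and H2BC4 are high in U5 and low in I2, and H4C11 is lowest among uninduced libraries in U5 and highest among induced libraries in I2.

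Beside each of the following lists stand the 39.8% of all genes called in this fit, 19.8% lower and 20.0% higher, and no list was tested against them. Called genes of histone pre-mRNA processing went both ways. Of the 13 genes on that list, all of them tested, 3 were lower, 2 higher and 8 were not called, with a median log2 fold change of -0.23. SYMPK, the scaffold of the cleavage complex, fell by 1.18 on the log2 scale, ZNF473, a zinc finger protein of the U7 complex, by 1.09 and LSM10, a U7 snRNP subunit, by 0.85. CASP8AP2 (FLASH), which recruits the cleavage complex to the U7 snRNP, rose by 0.68. For LSM10 the groups did not overlap, with 36.5 to 64.2 CPM in uninduced and 22.7 to 33.3 CPM in induced libraries.

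On the list for translation and decay of histone mRNA, 6 of 16 genes were higher, 0 lower and 10 not called, with a median of 0.36. Among the called genes were PNRC2, a decapping adaptor, with a log2 change of 2.13 (adjusted P = 0.0175), and LSM6 and LSM1, subunits of the LSM ring that binds oligouridylated histone mRNA, with 1.72 (adjusted P = 0.0175) and 0.75 (adjusted P = 0.0349), all from edgeR with Benjamini-Hochberg adjustment. CTIF, which links the nuclear cap-binding complex to translation, rose by 0.77. For both PNRC2 and LSM6, induced replicate 2 was the lowest induced library, at 7.43 and 6.11 CPM, and lay below uninduced replicate 5. Without both libraries their log2 changes were 2.86 and 2.15, and with 1 surrogate variable they were 1.23 and 1.03.

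Histone genes outside the rule are mostly made as polyadenylated mRNA throughout the cell cycle. Of 12 such genes 10 were tested, of which 4 were higher and 1 lower, with a median log2 fold change of 0.67. MACROH2A2 and MACROH2A1, the large H2A variants, rose by 1.67 and 1.18, CENPA, the centromeric H3 variant, by 1.64 and H2AX, the variant phosphorylated at DNA breaks, by 0.82. MACROH2A2 was at 2.60 without uninduced replicate 5 and induced replicate 2 and at 0.76 with 1 surrogate variable. H1-10 fell by 1.09, from between 625 and 1871 CPM to between 413 and 962 CPM. The shares called, 5 of 10 here and 1 of 15 among the members, were not tested against each other.

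Chaperones that carry new histones were split, with 7 of 20 higher, 4 lower and 9 not called (median 0.19). HAT1 and RBBP7, the acetyltransferase of new H4 and its partner, rose by 1.67 and 1.13 and SUPT16H, a subunit of FACT, by 0.89, while HIRA, which deposits the H3.3 variant, fell by 0.99. Of 26 genes for DNA replication and S phase, 6 were higher, 4 lower and 16 not called (median 0.12). Among the called genes the largest changes were in CCNE2 (2.14), a cyclin of S phase entry, CDC45 (1.06), a helicase component, and PCNA (1.05), the polymerase clamp, which rose, and in MCM5, a helicase subunit, which fell by 1.07. Of the 3 RNAs held mainly in the nucleus, 1 was called, NEAT1, which fell by 0.44, and the summed level of the 3 was between 737 and 931 CPM in uninduced and between 492 and 897 CPM in induced libraries. The part of nuclear RNA in the histone values was not tested. Of the genes named from these lists, CTIF, LSM1, MACROH2A1, MACROH2A2, H1-10, HIRA, CDC45, PCNA, ZNF473 and NEAT1 lost their call in at least 1 fit with a library left out. With 1 surrogate variable all but RNMT lost it. That fit called 1 of 13038 genes (0.00767%), so this loss was not particular to the genes named. CASP8AP2 and H2AX were not followed through these settings.

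In the parental line, doxycycline was compared with no treatment for the 6 members that passed the filter there. None was called, and none had an unadjusted P below 0.05 (edgeR; DESeq2 also called 0 of the 6), where 0% of 9124 genes were called and 2.93% reached that unadjusted P. Fitted log2 fold changes ran from -1.38 for H4C3 to 0.39 for H2BC21, and 5 of the 6 were below 0. H4C3 had a standard error of 1.31, and its log2 fold change was 0.42 without untreated replicate 1 and -4.89 without treated replicate 3. H4C11 was at 21.5, 10.97 and 9.28 CPM in untreated and at 8.22, 2.79 and 16.3 CPM in treated libraries, so the groups overlapped, as they did for 6 of 6 members (9.52% of all genes did not overlap). The log2 fold change of H4C11 was -0.66 (SE 0.66, adjusted P = 0.997, edgeR with Benjamini-Hochberg adjustment). H2AC6 was at 4.304, 20.1 and 18.9 CPM in untreated and at 13.2, 20.3 and 3.26 CPM in treated libraries. H1-2 was at 27.1, 23.2 and 1.497 CPM in untreated and at 1.43, 1.60 and 18.7 CPM in treated libraries. Both groups held low and high libraries.

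Whether the lines respond differently to doxycycline was tested as an interaction over all 16 libraries. The libraries differ between lines in depth, instrument, read length and tags on no gene. Of the 13 members tested, 0 were called by edgeR and 0 by DESeq2, and 1 had an unadjusted P below 0.05 in edgeR, where 2.98% of 12265 genes were called and 26.1% reached that unadjusted P. H2BC4 was nearest to the threshold, with a log2 difference between the responses of 2.09 (SE 0.83, adjusted P = 0.127, edgeR with Benjamini-Hochberg adjustment), and it was called without uninduced replicate 5 (2.48, adjusted P = 0.034, same test). H4C11 had a difference of -0.25 (SE 0.61, adjusted P = 0.829, same test), so a difference between the lines was not shown for it. The largest fitted difference, 3.89 for H1-4, had a standard error of 1.90 and rests on parental libraries with 0 to 3.07 CPM. SLBP had a difference of 0.83 (adjusted P = 0.416, same test). On the lists, 5 genes were called. LSM10 had a difference of -1.70 (adjusted P = 0.0468), H2AZ2, an H2A variant, -1.43 (adjusted P = 0.0433), CCNE1, a cyclin of S phase entry, -1.39 (adjusted P = 0.04997), MCM3, a helicase subunit, -1.26 (adjusted P = 0.04998) and MALAT1, a nuclear RNA, 2.37 (adjusted P = 0.0405), all by the same test. In 9 of the 16 fits with 1 library left out, 0 genes of the whole fit were called, so these calls and that of RNMT were lost in each of them. In the parental line no gene of any list was called.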

How the data were processed

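The authors deposited unnormalized tag counts per Ensembl gene for each library, from the REV human pipeline of the library kit supplier (Lexogen), on GRCh38. The aligner, annotation release and use of strand are not given in the sources used here. Each table also holds 92 spike-in entries, all 0, and 5 summary entries, which were left out of library sizes. Names for 56104 genes came from GENCODE 44.

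The filter of the methods (base mean above 20) was kept. Testing used the quasi-likelihood method of edgeR 4.0.16 under R 4.3.3 with TMM scaling within each fit, and P values were adjusted by Benjamini-Hochberg over all genes of the fit, with calls below 0.05. The standard error was the log2 fold change divided by the root of the test statistic. The procedure was run on simulated counts with few changed genes and no outlying library, so that run does not cover conditions like those of these data. Alternatives used DESeq2 1.42.0 and its size factors, total counts, filterByExpr, no filter, a replicate block, GC offsets (lowess span 0.5), 1 surrogate variable (sva 3.50.0) and each library left out. Leaving out uninduced replicate 5 and induced replicate 2 together was chosen after seeing the data. Intervals and floors cover counting error only. Sequences came from hg38, the build of the counts.

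The members and gene lists were chosen with earlier results of these data known. Values in every library are given for the 12 members with the highest mean, and from each list SLBP, NPAT and up to 4 called genes with the largest changes are named. CASP8AP2, H2AX and the genes named for the test between lines were added after their values were seen.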

Additional observations from a re-analysis of the deposited data

Results flagged for a closer look

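Within groups of 5 libraries, 96 sets of values were examined for a library whose gap to its nearest neighbour exceeded 0.71 of the group's range, and 16 were found. That cutoff gives about 1 in 20 for a single set of normal values. These sets come from the same libraries and are not independent, so their number was not tested against chance. Uninduced replicate 5 was the library in 12 of these. Its levels were 47.6 CPM for H2AC6, 4.86 for H2BC4, 5.12 for H2AC11, 20.3 for SLBP, 12.1 for PNRC2, 17.1 for MACROH2A2, 400.1 for MACROH2A1, 32.1 for HAT1, 90.9 for RBBP7, 43.4 for CDC45 and 81.1 for PCNA, and apart from H2AC11 all were above the other uninduced libraries. The H2A genes together took 56.6 unscaled CPM in this library, also apart from its group. Induced replicate 2 stood apart for RBBP7, at 54.9 CPM, and NPAT, at 26.2 CPM. The members without H4C3 took 479 unscaled CPM in induced replicate 4, and the H2B genes took 184 unscaled CPM in induced replicate 1.

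The response to doxycycline differed between the lines for RNMT, with a log2 difference of 2.43 (adjusted P = 0.0258), and for LSM10, with -1.70 (adjusted P = 0.0468), both from edgeR with Benjamini-Hochberg adjustment. Both calls were lost in 9 of the 16 fits with 1 library left out, in which 0 of 12265 genes were called. In the parental line, LSM10 had a log2 fold change of 0.61 with a standard error of 0.45.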

How the results depend on the processing

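The number of histone members called in the clone was 1 and moved with most settings, as did the share of all genes called, given in parentheses (39.8% in the main form). It was 0 with 1 surrogate variable (0.00767%), 2 with filterByExpr (36.5%), no filter (17.3%), the replicate block (39.8%) and total counts alone (41.6%), 3 with DESeq2 (45.9%), and 4 without uninduced replicate 5 and induced replicate 2 (64%). With each library left out it ran from 0 to 4, with 4 without uninduced replicate 5 (58.4%), 3 without induced replicate 2 (48.7%), 2 without uninduced replicate 3 (28.9%) and 0 without any of uninduced replicates 1, 2 and 4 or induced replicates 1, 3 and 4 (14.5% to 25.2%). With GC offsets it was 1 (26.1%), but the gene called was H2BC15 and not H4C11. H2BC12, too low for the main filter, was the second lower gene with filterByExpr and no filter. In the parental line the number stayed at 0, and in the test between lines it ran from 0 to 1, with H2BC4 called without uninduced replicate 5.

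Signs turned for small changes. With total counts alone, which moved the median of all genes from 0.04 to 0.28 and the split to 1401 lower and 4022 higher, H2AC20 was at 0.19, H2AC11 at 0.18, H3C10 at 0.056 and NPAT at 0.10. With GC offsets H2AC20 was at 0.32 and H2AC11 at 0.39, and at 0.29 and 0.39 with the replicate block as well. With 1 surrogate variable, which left 1 gene called in all, H2BC21 was at -0.27, H2BC5 at -0.18, H2AC20 at 0.0024 and H2AC11 at 0.074. With the replicate block H1-1 was at -0.016 and H1-2 at -0.050, and H1-2 was at -0.10 without uninduced replicate 5 and induced replicate 2. Among fits with 1 library left out, H2AC20 ran from -0.16 to 0.083, H1-1 from -0.20 to 0.30, H1-2 from -0.19 to 0.22 and parental H4C3 from -4.89 to 0.42. Of the 46 named results, only 23 were past the threshold in the main form and could lose a call. In 437 other comparisons for all 46, 378 kept their direction and side of the threshold, 15 turned sign, 32 lost a call and 12 gained one. With 1 library left out, 391 of 478 kept both, 5 turned sign, 75 lost a call and 7 gained one. The cause was not tested.

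A pairing of libraries by replicate number was not shown. Deviations of same-numbered libraries correlated at 0.03 on average in the clone, with single pairs from -0.37 to 0.63. In the parental line the average was -0.06, with pairs from -0.42 to 0.24. Correlations this scattered cannot exclude a pairing. With the replicate block 2 members were called, H4C11 and H2AC6 (1.19, adjusted P = 0.043, edgeR). The added unscaled CPM on all members in induced libraries, 256 in the main form, ranged from 141 to 324 with 1 library left out and were 161 with TMM scaling. The parental depth and the loss of tags with several alignments limit what can be seen of low or near-identical members.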
